A study of Mus musculus with 12 samples.

Results

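Metallothioneins 1 and 2 (Mt1, Mt2), the metal-responsive transcription factor Mtf1, the zinc importer Slc39a14 and the zinc exporter Slc30a1 were followed across 4 groups of RAW264.7 cells, an established mouse macrophage line. The genes were chosen by name: every non-control probe of the array named for 1 of the 5 genes was taken, which gave 7 of the 55681 probes on the array. Of these, 6 passed the filter on dim probes, and each of the 6 was well above background on all 12 arrays. Gene expression had been measured on 12 single-colour Agilent arrays, 3 per group. Cells of 2 groups had received an siRNA to lincRNA-Tnfaip3, a long noncoding RNA, and cells of the other 2 a scrambled control siRNA, for 24 h in each case. The groups were lincRNA siRNA with LPS, control siRNA with LPS, lincRNA siRNA without LPS and control siRNA without LPS. E. coli lipopolysaccharide (LPS), a bacterial cell wall component that activates macrophages, had been added at 1 µg/ml for a further 4 h. All groups therefore came from 1 cell line and all had been transfected with an siRNA. Nothing in the labels tells separate cultures from repeat preparations, and the p-values below therefore rest on a spread between arrays that may be technical.

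Metallothioneins are small cysteine-rich proteins that bind zinc and copper and buffer free metal in the cytosol. When free zinc rises, the zinc finger protein MTF-1, encoded by Mtf1, binds metal response elements in the promoters of Mt1, Mt2 and Slc30a1 and raises their transcription. Slc39a14 (ZIP14) carries zinc and also iron and manganese into the cytosol, and Slc30a1 (ZnT1) exports zinc across the plasma membrane. In liver and in myeloid cells, metallothioneins and Slc39a14 are known to be induced in inflammation.

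The promoters are shown because the metal response element links the regulator in the set to its targets. RefSeq promoters on build GRCm38.p6, each from 250 bases before to 50 bases after the annotated start, were found for 4 of the 5 genes. Capitals mark matches to the element's core, TGCACNC or TGCGCNC, on either strand, and a match on the minus strand appears as its reverse complement. The windows shown are chr8:94178839-94179138 for Mt1, chr8:94172368-94172667 for Mt2 and chr1:191906531-191906830 for Slc30a1, all on the plus strand.
Mt1: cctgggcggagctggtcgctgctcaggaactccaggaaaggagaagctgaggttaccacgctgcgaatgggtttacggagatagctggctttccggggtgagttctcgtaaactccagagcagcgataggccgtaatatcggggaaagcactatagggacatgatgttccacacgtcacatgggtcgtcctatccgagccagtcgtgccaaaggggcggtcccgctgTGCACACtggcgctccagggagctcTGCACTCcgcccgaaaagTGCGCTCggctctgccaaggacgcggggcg
Mt2: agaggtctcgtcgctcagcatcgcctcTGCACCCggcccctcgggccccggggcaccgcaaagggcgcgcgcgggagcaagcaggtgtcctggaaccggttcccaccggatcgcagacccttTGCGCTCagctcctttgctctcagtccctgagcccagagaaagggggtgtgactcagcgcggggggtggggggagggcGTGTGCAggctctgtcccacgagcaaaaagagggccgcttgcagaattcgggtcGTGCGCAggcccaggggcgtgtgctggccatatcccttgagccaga
Slc30a1: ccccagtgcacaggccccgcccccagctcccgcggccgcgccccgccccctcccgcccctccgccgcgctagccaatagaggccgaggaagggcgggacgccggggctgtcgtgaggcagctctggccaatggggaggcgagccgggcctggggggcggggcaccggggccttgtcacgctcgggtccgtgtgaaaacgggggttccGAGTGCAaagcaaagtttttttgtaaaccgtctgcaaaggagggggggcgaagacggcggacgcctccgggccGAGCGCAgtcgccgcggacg
The Mt1 window held 3 matches, at 23 bases before the start and at 3 and 21 bases after it. The Mt2 window held 4 matches, at 223, 128 and 50 bases before the start and 5 bases after it. The Slc30a1 window held 2 matches, 43 bases before the start and 31 bases after it, and both were on the minus strand. The window of Mtf1, the gene of the regulator itself, held 0 matches. Of 32851 promoters of the same length, 25.7% held at least 1 match, 7.11% at least 2, 1.97% at least 3 and 0.517% at least 4. These are matches of letters and do not show binding. Matches outside the windows were not counted. All positions are given from the annotated start, and whether transcription began there in these cells was not tested.

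Of the 55681 probes, 33151 were kept, which gave 23909 features for the test. The signal of each array was divided by its own 75th percentile, and this multiple is called the scaled signal below. Differences were tested on the log2 scale with limma in a single model of all 12 arrays, with Benjamini-Hochberg adjustment over the 23909 features and a threshold of 0.05. The arrays lay on 3 slides. Slide 1 held the control arrays 1 and 2, and slide 3 the arrays 2 and 3 of lincRNA siRNA with LPS. Slide 2 held the other 8. Slides 1 and 3 thus each held arrays of 1 group only. A fit with the slide as a fixed block therefore takes its differences from slide 2 alone. That leaves 1 array of control siRNA and 1 of lincRNA siRNA with LPS, so it cannot tell the slide from the loss of arrays. Fewer probes stood well above background on the slide 1 arrays (27265 and 29540) than on the others (32781 to 36442). No probe carried the name of lincRNA-Tnfaip3, so its level was not analysed here. Of 10 macrophage markers, 9 were well above background on all 12 arrays, the exception being Mertk. Of 25 markers of other cell types on the array, 6 were well above background on all 12 arrays (Cd3e, Cd79a, Elane, Mpo, Pecam1 and Kdr) and 11 on none. Those well above background on none included Cd3g, Ms4a1, Klrb1c, Cpa3, Hbb-b1, Pdgfra, Epcam, Cdh1, Alb and Apoa1.

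Mt1 and Mt2 were bright in every group, and their group means had the same order: highest in lincRNA siRNA with LPS, then control siRNA with LPS, then lincRNA siRNA, then control siRNA. None of the 5 genes passed the test for LPS within either siRNA, for the siRNA with or without LPS, or for the interaction. In an average of the LPS effect over both siRNAs, a comparison added after the values had been seen, Mt2 and Slc39a14 rose with LPS, by 1.41-fold and 1.24-fold. Neither passed with the slide as a block (0.435 and 0.279 on the log2 scale), a fit that takes its differences from slide 2 alone. Most fits that left out 1 array lost the calls. Mtf1 and Slc30a1 passed in no comparison. These are bulk samples, in which fewer cells of a type and less RNA per cell cannot be told apart.

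**Figure D1:**
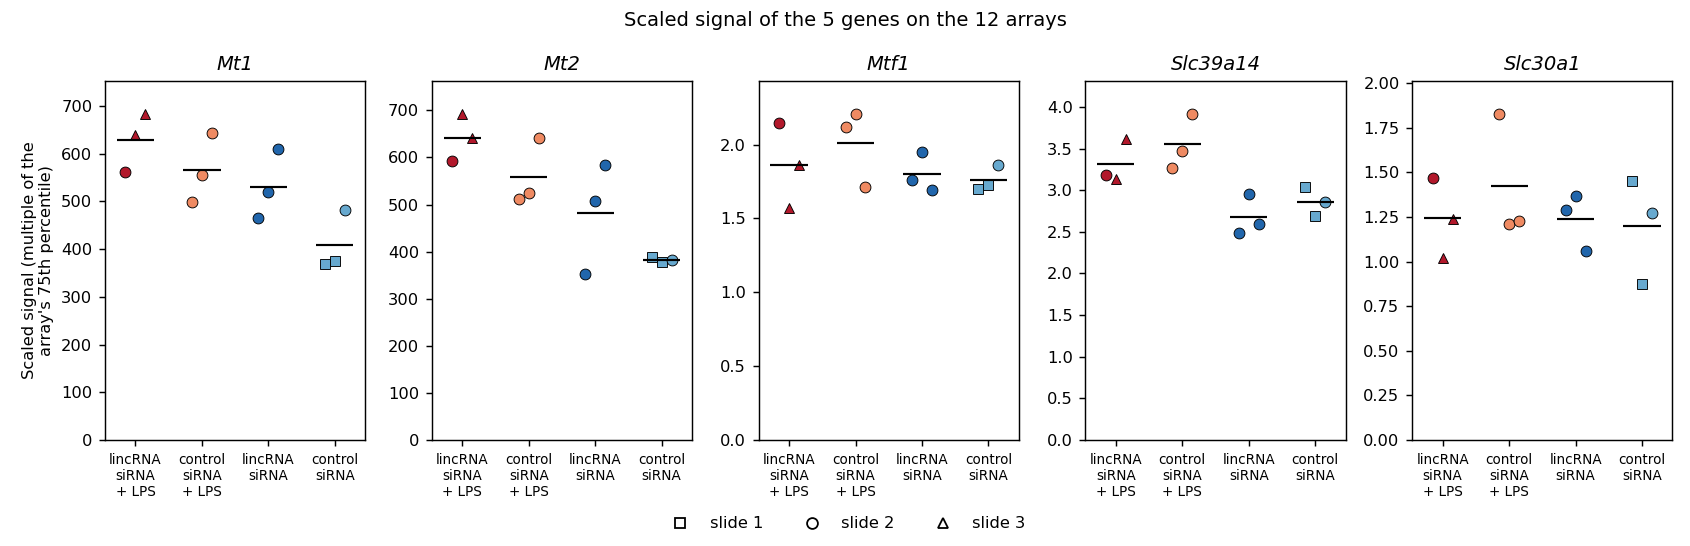
Scaled signal (multiple of the array's 75th percentile, linear axis from 0) of Mt1, Mt2, Mtf1, Slc39a14 and Slc30a1 on each of 12 arrays. Points are arrays, bars are group means of 3 arrays, and the marker shape gives the slide. Mt1 means were 629, 566, 531 and 409 from left to right, with the 2 slide 1 control arrays at 369 and 376 and the slide 2 control array at 482.

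Mt1 was measured by 1 probe at chr8:96704165-96704224 on build mm9, plus strand. Its scaled signal was 562, 640 and 684 in lincRNA siRNA with LPS, against 465, 519 and 609 in lincRNA siRNA without LPS. In the control siRNA it was 499, 556 and 643 with LPS, against 369, 376 and 482 without LPS. The control siRNA arrays with LPS were all above those without it, while the lincRNA siRNA arrays with and without LPS overlapped. The group means were 629 ± 61.6 in lincRNA siRNA with LPS, 566 ± 72.6 in control siRNA with LPS, 531 ± 73 in lincRNA siRNA and 409 ± 63.3 in control siRNA (SD, n = 3 each).

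The LPS difference of Mt1 was 0.25 ± 0.16 in lincRNA-siRNA cells on the log2 scale (SE; 95% interval -0.1 to 0.6; limma adjusted p = 0.693). In control-siRNA cells it was 0.47 ± 0.16 (SE; interval 0.12 to 0.82; limma adjusted p = 0.115). Neither passed. The siRNA difference of Mt1 was 0.15 with LPS (interval -0.19 to 0.5; limma adjusted p = 0.977) and 0.38 without LPS (interval 0.03 to 0.73; limma adjusted p = 0.252). The lowest group, control siRNA, was also the one with 2 of its arrays on slide 1. On slide 2 alone, where 1 control array remained, the LPS difference in control-siRNA cells was 0.224 and the siRNA difference without LPS was 0.131. Without that control array on slide 2, replicate 3, the same LPS difference was 0.596 and passed (limma adjusted p = 0.0342). The part of the slide in these differences was not tested beyond these values.

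Mt2 was measured by 1 probe at chr8:96697371-96697430 on mm9, plus strand, 6.8 kb from the Mt1 probe. Its scaled signal was 592, 693 and 642 in lincRNA siRNA with LPS, against 353, 507 and 583 in lincRNA siRNA without LPS. In the control siRNA it was 511, 525 and 641 with LPS, against 389, 378 and 382 without LPS. With either siRNA, every array with LPS was above every array without it. The 3 control arrays lay close together on both slides (383 ± 5.58; SD, n = 3), whereas lincRNA siRNA without LPS spread most widely (481 ± 117; SD, n = 3). The groups with LPS averaged 642 ± 50.8 with the lincRNA siRNA and 559 ± 71.3 with the control siRNA (SD, n = 3 each).

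The LPS difference of Mt2 was 0.45 ± 0.17 in lincRNA-siRNA cells (SE; interval 0.06 to 0.84; limma adjusted p = 0.402). In control-siRNA cells it was 0.54 ± 0.17 (SE; interval 0.15 to 0.93; limma adjusted p = 0.11). Both intervals lay above 0 but neither difference passed after adjustment. Without lincRNA siRNA replicate 1, the lowest Mt2 array of its group, the difference in control-siRNA cells passed at the same size (0.538; limma adjusted p = 0.0337). In the model all groups share 1 estimate of spread. Without the same array the LPS difference in lincRNA-siRNA cells was 0.238 (limma adjusted p = 0.836). The siRNA difference of Mt2 was 0.21 with LPS (interval -0.18 to 0.6; limma adjusted p = 0.977) and 0.3 without LPS (interval -0.09 to 0.69; limma adjusted p = 0.37). Without lincRNA siRNA replicate 1, the difference without LPS was 0.505 and did not pass (limma adjusted p = 0.128).

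Because both genes gave very bright spots, the scanner range was checked. The raw mean signal was 15.2 to 28.2% of the saturation value for Mt1 and 15.4 to 29.5% for Mt2, with 0 saturated pixels on every array. The 60-base probes of Mt1 and Mt2 shared no run longer than 7 bases.

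**Figure D2:**
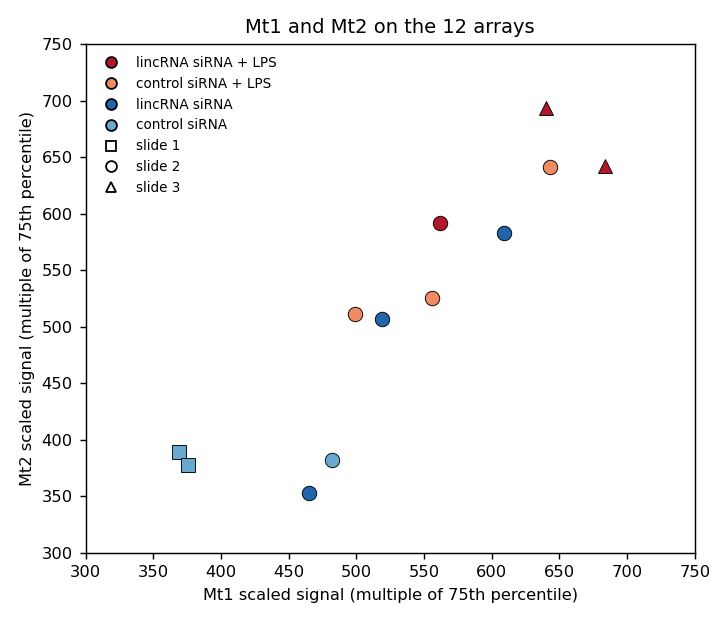
Scaled signal of Mt2 (vertical) against Mt1 (horizontal) on the 12 arrays, as multiples of the array's 75th percentile. Both axes start at 300, colour gives the group and marker shape the slide. The slide 1 control arrays lie at the lower left, at 369 and 376 for Mt1, and the lincRNA siRNA arrays with LPS lie at the upper right.

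A further probe within the same locus, at chr8:96703844-96703903 on mm9, is described in the files as metallothionein 1 but is named there by an Ensembl transcript, so it was not among the 7 probes. Its scaled signal averaged 1.56 in lincRNA siRNA with LPS, against 0.892 in lincRNA siRNA without LPS. It averaged 1.32 in control siRNA with LPS, against 0.845 in control siRNA without LPS. These levels were far below those of the Mt1 probe, whose group means ran from 409 to 629. With either siRNA the arrays with and without LPS did not overlap. The LPS difference was 0.84 ± 0.23 in lincRNA-siRNA cells (SE; limma adjusted p = 0.141) and 0.68 ± 0.23 in control-siRNA cells (SE; limma adjusted p = 0.118). Averaged over both siRNAs it rose by 0.76 ± 0.16 (SE; limma adjusted p = 0.0181). A fit that held the slide as a block, and so rested on slide 2 alone, gave 0.803 and no call.

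The other genes with a tested probe within 200 kb of the Mt1 probe were Nudt21, Ogfod1, Bbs2, Mt4, Mt3, Nup93 and Slc12a3. None of the 7 passed for LPS within either siRNA or in the average over both siRNAs. Mt3, a metallothionein known mainly from brain, had an LPS difference of 0.13 in lincRNA-siRNA cells and 0.03 in control-siRNA cells, with group means of 1.82 to 2.12 in scaled signal with LPS and 1.81 to 1.95 without. Mt4, known mainly from stratified epithelium, was far less precise, with LPS differences of 0.19 ± 0.6 in lincRNA-siRNA cells and -0.55 ± 0.6 in control-siRNA cells (SE). The neighbours beyond the metallothioneins ranged from -0.17 (Bbs2) to 0.19 (Slc12a3) in lincRNA-siRNA cells and from -0.27 (Nudt21) to 1.08 (Slc12a3) in control-siRNA cells. The Slc12a3 probe was well above background on 11 of the 12 arrays.

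**Figure D3:**
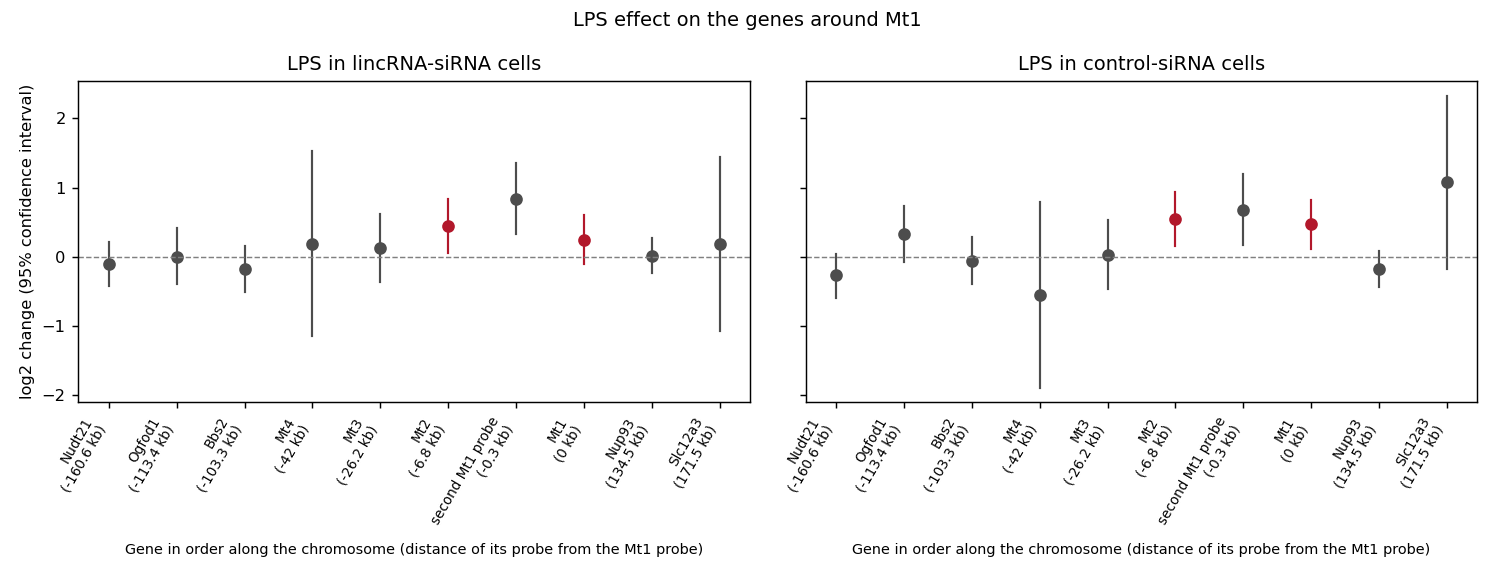
LPS difference (log2, points, with 95% confidence intervals) of genes around Mt1, in order along the chromosome with the distance of each probe from the Mt1 probe. The left panel shows lincRNA-siRNA cells and the right panel control-siRNA cells, with Mt1 and Mt2 in red. Mt2 and the second probe described as Mt1 have intervals above 0 in both panels, and no point passed after adjustment.

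Mtf1, the metal sensor that switches on metallothionein genes, had 3 probes. The probe used, at chr4:124526365-124526424 on mm9, gave 2.15, 1.57 and 1.86 in lincRNA siRNA with LPS, against 1.76, 1.95 and 1.69 in lincRNA siRNA without LPS. In the control siRNA it gave 2.12, 2.21 and 1.71 with LPS, against 1.7, 1.73 and 1.86 without LPS. All 4 groups overlapped, with means of 1.86 ± 0.291, 2.02 ± 0.266, 1.8 ± 0.134 and 1.76 ± 0.0856 in lincRNA siRNA with LPS, control siRNA with LPS, lincRNA siRNA and control siRNA (SD, n = 3 each). The LPS difference was 0.04 (interval -0.28 to 0.36; limma adjusted p = 0.975) in lincRNA-siRNA cells and 0.19 (interval -0.13 to 0.5; limma adjusted p = 0.428) in control-siRNA cells. The siRNA difference was -0.12 with LPS and 0.03 without it, with intervals from -0.43 to 0.2 and from -0.29 to 0.34.

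The second Mtf1 probe, at chr4:124522092-124522151, differed in direction from the first in some comparisons. It averaged 0.91 ± 0.149 in lincRNA siRNA with LPS and 0.843 ± 0.075 in control siRNA with LPS (SD, n = 3 each). Without LPS it averaged 0.958 ± 0.0743 in lincRNA siRNA and 0.72 ± 0.111 in control siRNA (SD, n = 3 each). Its siRNA difference without LPS was 0.42 ± 0.16 (SE), which did not pass (limma adjusted p over kept probes = 0.239), and with LPS it was 0.1, against -0.12 by the first probe. The third probe, at chr4:124524812-124524871, was not well above background on any array.

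Slc39a14, the zinc importer, was measured by 1 probe at chr14:70703394-70703453 on mm9, minus strand. Its scaled signal was 3.18, 3.13 and 3.62 in lincRNA siRNA with LPS, against 2.48, 2.96 and 2.6 in lincRNA siRNA without LPS. In the control siRNA it was 3.27, 3.47 and 3.92 with LPS, against 3.04, 2.69 and 2.86 without LPS. All arrays with LPS were above all arrays without LPS, whichever siRNA the cells had received. The means were 3.31 ± 0.27 in lincRNA siRNA with LPS, 3.55 ± 0.332 in control siRNA with LPS, 2.68 ± 0.252 in lincRNA siRNA and 2.86 ± 0.174 in control siRNA (SD, n = 3 each). The LPS difference was 0.3 ± 0.11 in lincRNA-siRNA cells (SE; interval 0.05 to 0.56; limma adjusted p = 0.364) and 0.31 ± 0.11 in control-siRNA cells (SE; interval 0.06 to 0.57; limma adjusted p = 0.144). The siRNA difference was -0.1 both with LPS (interval -0.36 to 0.15) and without it (interval -0.35 to 0.16). Unlike the metallothioneins, the group with the highest mean was control siRNA with LPS.

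Slc30a1, the zinc exporter, was measured by 1 probe at chr1:193736760-193736819 on mm9, plus strand. Its scaled signal was 1.47, 1.02 and 1.24 in lincRNA siRNA with LPS, against 1.29, 1.37 and 1.06 in lincRNA siRNA without LPS. In the control siRNA it was 1.83, 1.21 and 1.23 with LPS, against 1.45, 0.876 and 1.27 without LPS. The groups overlapped throughout, and their means lay between 1.2 ± 0.293 in control siRNA and 1.43 ± 0.353 in control siRNA with LPS (SD, n = 3 each). The LPS difference was 0 (interval -0.53 to 0.52; limma adjusted p = 0.999) in lincRNA-siRNA cells and 0.25 (interval -0.27 to 0.78; limma adjusted p = 0.521) in control-siRNA cells. The siRNA difference was -0.18 with LPS (interval -0.71 to 0.34) and 0.07 without LPS (interval -0.45 to 0.6).

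**Figure D4:**
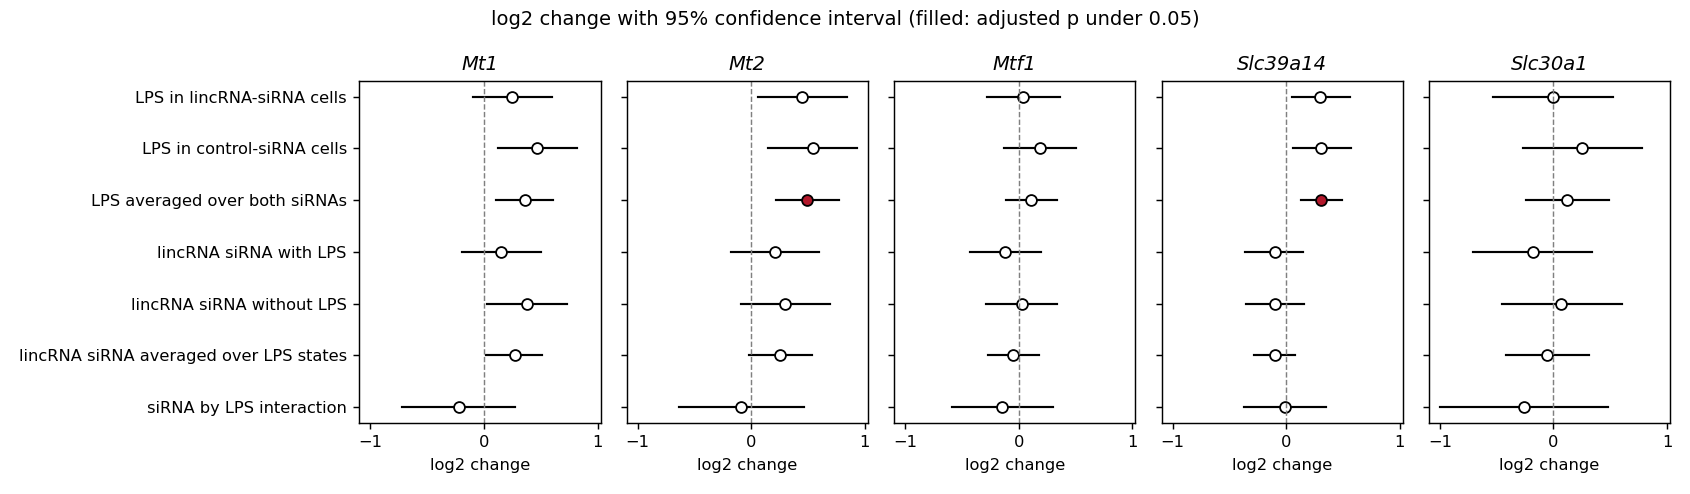
Difference in each comparison (log2, points, with 95% confidence intervals) for the 5 genes. Filled points passed the adjusted threshold: Mt2 at 0.49 and Slc39a14 at 0.31, both in the LPS effect averaged over both siRNAs.

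Set against all features, the LPS effect in lincRNA-siRNA cells passed for 0 of the 5 genes, against 1.81% of the 23909 features. In control-siRNA cells it passed for 0 of 5, against 5.26% of features. At an unadjusted p under 0.05 there were 2 of the 5 genes in lincRNA-siRNA cells, against 2410 of the 23909 features. In control-siRNA cells there were 3 of 5, against 5840 of 23909. Groups with and without LPS did not overlap, with higher values under LPS, for 2 of the 5 genes in lincRNA-siRNA cells (Mt2 and Slc39a14), against 7.94% of features. In control-siRNA cells this held for 3 of the 5 (Mt1, Mt2 and Slc39a14), against 14.5% of features. With 5 genes of which Mt1 and Mt2 are neighbours, these counts are a description.

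The average over both siRNAs passed for 2 of the 5 genes, Mt2 and Slc39a14, both higher with LPS. Of all features 8.29% passed in this comparison, and 4.16% passed with a higher level under LPS. The Mt2 difference was 0.49 ± 0.12 (SE; 1.41-fold, interval 1.16 to 1.7; limma adjusted p = 0.0382) and that of Slc39a14 was 0.31 ± 0.08 (SE; 1.24-fold, interval 1.09 to 1.4; limma adjusted p = 0.0451). Mt1 averaged 0.36 ± 0.11 (SE; limma adjusted p = 0.0783), and passed at 0.422 without control siRNA replicate 3. The average was 0.12 ± 0.17 for Slc30a1 (SE; limma adjusted p = 0.667) and 0.11 ± 0.1 for Mtf1 (SE; limma adjusted p = 0.501). With the slide as a block, and so from slide 2 alone, Mt2 had 0.435 and Slc39a14 0.279, and neither passed. Leaving out 1 array at a time, Mt2 ranged from 0.388 to 0.569 and passed in 4 of 12 fits, those without control siRNA replicate 3, control siRNA with LPS replicate 1 and lincRNA siRNA replicates 1 and 3. Slc39a14 ranged from 0.272 to 0.345 and passed in 3 of 12, those without control siRNA replicate 3, control siRNA with LPS replicate 1 and lincRNA siRNA replicate 2.

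For the lincRNA siRNA, 0 of the 5 genes passed with LPS and 0 without, against 0% of features in both. At an unadjusted p under 0.05 there were 0 of the 5 genes with LPS and 1 without, Mt1, against 1116 features (4.67%) and 4368 features (18.3%). The siRNA difference averaged over LPS states passed for 0 of 5 genes, against 0.0962% of features. It was 0.27 ± 0.11 for Mt1 (SE; interval 0.02 to 0.51; limma adjusted p = 0.277) and 0.25 ± 0.12 for Mt2 (SE; interval -0.02 to 0.53; limma adjusted p = 0.322). It was -0.05 for Mtf1, -0.1 for Slc39a14 and -0.06 for Slc30a1. The metallothionein values depended on the normalization. With quantile normalization the siRNA average was 0.07 for Mt1 and 0.0611 for Mt2, and with normexp and quantile normalization 0.102 and 0.036. Without LPS, the siRNA difference of Mt1 was 0.127 with either normalization. That of Mt2 was 0.0508 with quantile normalization and 0.0271 with normexp and quantile normalization.

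The interaction asked whether LPS acted differently under the lincRNA siRNA than under the control siRNA. It passed for 0 of 5 genes, against 0% of features (904 features, 3.78%, at an unadjusted p under 0.05). The estimate was -0.22 for Mt1 (interval -0.72 to 0.27), -0.09 for Mt2 (interval -0.64 to 0.46) and -0.01 for Slc39a14 (interval -0.37 to 0.35). It was -0.15 for Mtf1 (interval -0.59 to 0.3) and -0.26 for Slc30a1 (interval -1 to 0.48). None of the 5 had an unadjusted p under 0.05, and over the 5 genes the intervals reached from -1 to 0.48.

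The summed scaled signal of the tested markers of other cell types, like the scaled signal of Mt1, had its highest array in lincRNA siRNA with LPS and its lowest in control siRNA. It was 20.5 to 24.8 in lincRNA siRNA with LPS, 17.8 to 23.3 in control siRNA with LPS, 16.3 to 23.7 in lincRNA siRNA and 13.6 to 16.9 in control siRNA. For Mt2 the highest array was also in lincRNA siRNA with LPS (693), but the lowest was in lincRNA siRNA without LPS (353). The part of the marker sum in the metallothionein differences was not tested.

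Among 27 other zinc handling genes on the array, 21 were tested, and 0 rose and 0 fell with LPS in either siRNA background by limma. Of all features 1.81% passed in lincRNA-siRNA cells and 5.26% in control-siRNA cells. At an unadjusted p under 0.05 there was 1 higher and 0 lower in lincRNA-siRNA cells, against 2410 of the 23909 features in either direction. In control-siRNA cells there were 2 higher and 1 lower, against 5840 of the 23909 features. The median LPS difference of the 21 was 0.03 in lincRNA-siRNA cells and -0.05 in control-siRNA cells, against -0.01 and 0.04 over all features. The average over both siRNAs also gave 0 calls in either direction, against 8.29% of features (median -0.02, against 0.02 over all features). This average had 2 higher and 3 lower of the 21 at an unadjusted p under 0.05, against 5806 of the 23909 features in either direction. The untested genes were Slc39a5, Slc39a8, Slc39a12, Slc30a3, Slc30a8 and Slc30a10, which did not reach the filter on dim probes. Slc39a8 (ZIP8), a zinc importer known to be induced by NF-kB in human myeloid cells, was well above background on 6 of the 12 arrays.

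Of the 10 importers tested, Slc39a4 had the largest LPS differences, at -0.38 ± 0.22 in lincRNA-siRNA cells (SE; limma adjusted p = 0.667) and -0.53 ± 0.22 in control-siRNA cells (SE; limma adjusted p = 0.184). Its scaled signal in control-siRNA cells averaged 4.3 with LPS, against 6.08 without. Slc39a1, a plasma membrane importer, had 0.27 ± 0.11 with either siRNA (SE), and Slc39a10 had 0.32 ± 0.16 in lincRNA-siRNA cells and 0.15 ± 0.16 in control-siRNA cells (SE). Slc39a11 had -0.15 in lincRNA-siRNA cells and -0.17 in control-siRNA cells. Of the 7 exporters tested, the largest values in control-siRNA cells were 0.55 ± 0.44 for Tmem163, -0.3 ± 0.15 for Slc30a9 and -0.22 ± 0.15 for Slc30a5 (SE), and none passed. S100a9 and S100a8, the subunits of the zinc-binding protein calprotectin, had LPS differences of 0.46 ± 0.38 and 0.56 ± 0.65 in lincRNA-siRNA cells (SE). In control-siRNA cells they were 1.24 ± 0.38 (limma adjusted p = 0.0938) and 1.09 ± 0.65 (limma adjusted p = 0.316). The S100a9 probe was well above background on 2 of 3 arrays of lincRNA siRNA with LPS, all 3 of control siRNA with LPS and 1 of 3 without LPS with either siRNA, so it passed the filter through control siRNA with LPS and its differences rest in part on signals near background.

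The lincRNA siRNA also gave 0 calls in either direction among the 21 genes, with LPS, without LPS and averaged over LPS states, against 0%, 0% and 0.0962% of features. At an unadjusted p under 0.05 there were 0 higher and 1 lower with LPS, 0 in either direction without LPS, and 1 higher and 1 lower on average. Over all 23909 features, 1116 (4.67%) were under this threshold with LPS, 4368 (18.3%) without LPS and 4071 on average. The median siRNA difference was 0.01 with LPS and -0.01 without LPS, against 0.02 and 0.06 over all features. Averaged over LPS states the median was 0.02, against 0.04 over all features, and the largest values among transporters were -0.3 ± 0.1 for Slc39a13 (SE; limma adjusted p = 0.218) and -0.21 ± 0.11 for Slc30a6 (SE; limma adjusted p = 0.329). S100a8 had 1.04 ± 0.46 (SE; limma adjusted p = 0.289) and Mt4 -0.76 ± 0.42 (SE; limma adjusted p = 0.366).

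Metallothioneins share inducers with genes of the oxidative stress response, of which 8 were listed, 7 were on the array and 6 were tested. Averaged over LPS states, 1 of the 6, Srxn1 (sulfiredoxin), was higher with the lincRNA siRNA, by 0.7 ± 0.09 (SE; limma adjusted p = 0.033), and 0 were lower. Of all features 0.0962% passed in this comparison. The median of the 6 was 0.4, against 0.04 over all features. Srxn1 had scaled signals of 36.1 in lincRNA siRNA and 22.9 in control siRNA with LPS, and of 30.6 and 18.3 in the same siRNAs without LPS. With the slide as a block, and so from slide 2 alone, Srxn1 had 0.742 and did not pass. Of the 12 fits without 1 array, it passed in 2, those without control siRNA replicate 3 and lincRNA siRNA replicate 1. Gclm, Slc7a11 and Txnrd1 had siRNA differences of 0.44 ± 0.09, 0.49 ± 0.15 and 0.35 ± 0.07 (SE), which did not pass (adjusted p = 0.113, 0.193 and 0.116). Of the remaining stress genes tested, Gclc had -0.03 ± 0.09 and Hmox1 had 0.05 ± 0.6 (SE). The Hmox1 value was imprecise, with an interval from -1.28 to 1.38.

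For LPS averaged over both siRNAs, 1 of the 6 stress genes rose and 1 fell, against 8.29% of features passing in either direction and 4.16% rising. The median of the 6 was 0.23, against 0.02 over all features. The cystine transporter gene Slc7a11 rose by 0.71 ± 0.15 (SE; limma adjusted p = 0.016), and the glutathione synthesis gene Gclc had -0.37 ± 0.09 (SE; limma adjusted p = 0.0383). With the slide as a block, and so from slide 2 alone, they had 0.913 and -0.194 and did not pass. Of the 12 fits without 1 array, Slc7a11 passed in all 12 and Gclc in 2, those without control siRNA replicate 3 and lincRNA siRNA with LPS replicate 1. Hmox1, a heme-degrading enzyme also induced by metals, had 0.2 ± 0.6 (SE; limma adjusted p = 0.863).

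**Figure D5:**
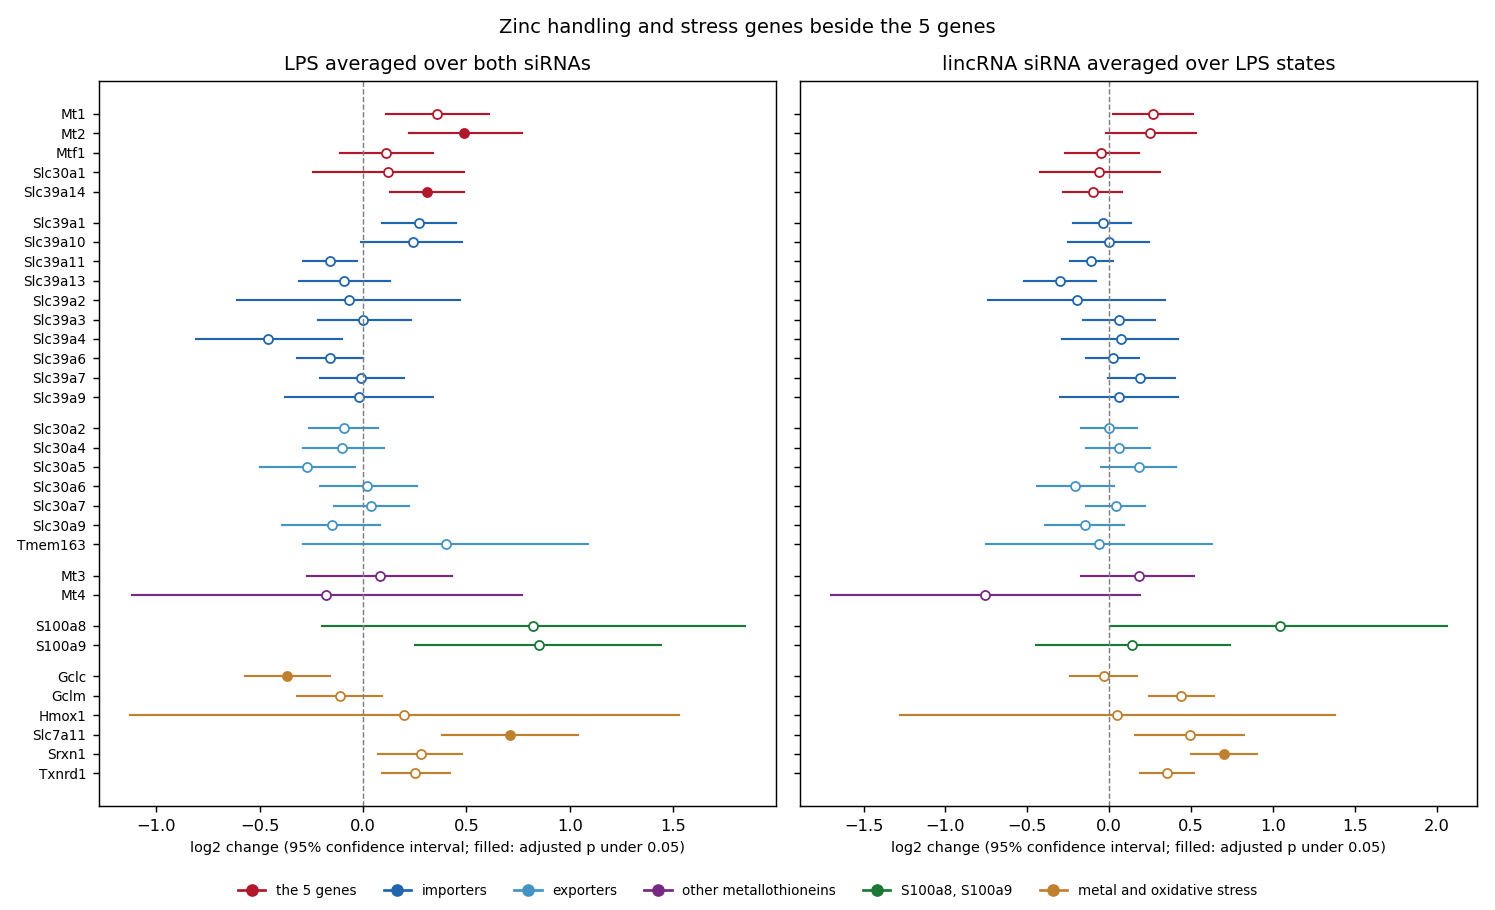
Difference (log2, points, with 95% confidence intervals) of the 5 genes, other zinc handling genes and metal and oxidative stress genes, for LPS averaged over both siRNAs (left) and the lincRNA siRNA averaged over LPS states (right). Filled points passed the adjusted threshold: Mt2, Slc39a14, Slc7a11 and Gclc on the left and Srxn1 on the right. The S100a9 probe was well above background on 7 of the 12 arrays.

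Likeness of pattern was measured as Pearson's r of log2 scaled signal over the 12 arrays, which share their array scaling, and is given with no test. The features most like Mt1 were Cd247 (r = 0.977), Lep (r = 0.965) and Loxhd1 (r = 0.964). These were far dimmer than Mt1, whose group means ran from 409 to 629. Their group means of scaled signal were 0.038 to 0.0804 for Cd247, 0.0886 to 0.217 for Lep and 0.369 to 0.699 for Loxhd1. The features most like Mt2 were Selenow (r = 0.961), Irf7 (r = 0.959) and Oas3 (r = 0.959). Irf7 and Oas3 are interferon-induced genes, and their LPS differences averaged over both siRNAs were 2.35 ± 0.51 and 1.52 ± 0.28 (SE), against 0.49 for Mt2. Their siRNA differences without LPS were 1.82 ± 0.72 and 0.87 ± 0.39 (SE), against 0.3 for Mt2, and none of these passed. Mt1 and Mt2 had r = 0.888 with each other. Slc39a14 was most like Pxk (r = 0.933), 5830432E09Rik (r = 0.925) and Peak1 (r = 0.922), and had r = 0.643 with Mt2 and 0.531 with Mt1. Slc30a1 was most like Ttpal (r = 0.923), Rnf14 (r = 0.919) and E130201H02Rik (r = 0.826). Mtf1 was most like Cutc (r = 0.881), Kif21a (r = 0.859) and Gm6133 (r = 0.84). Mtf1 had r = 0.0463 with Mt1 and 0.0315 with Mt2, and Slc30a1 had r = -0.0458 and -0.0301.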

How the data were processed

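The deposited arrays hold spot intensity values from Agilent Feature Extraction 10.7.1.1, per the file headers, with probe positions on mm9, and the same tool is named in the submitters' processing notes. The processed intensity had been background-subtracted within each array but not normalized between arrays, per the file headers. The authors' deposited value table is on a log2 scale by its slope on the scanner signal, and every column has a median of 4.75. It served as an alternative. How its columns were normalized is not known for certain, but its differences nearly equalled those with quantile normalization (Mt2, LPS average: 0.356 against 0.357). These alternatives were therefore nearly the same. Outlier-flagged spots (104 to 258 per array) were left out, and 0 spots were saturated. Spots of a probe were averaged, each log2 signal had the 75th percentile of its array subtracted, and the filter on dim probes required all 3 arrays of some group to be well above background. Per gene the kept probe with the highest mean was used. One mean per group was fitted with limma 3.58.1 in R 4.3.3, with 8 residual degrees of freedom, and the fit was tested on simulated data. The number of arrays limits the precision, as do the slides, which were not balanced over the groups. The 5 genes and the gene lists were chosen with earlier results of these data known, and the LPS effect averaged over both siRNAs was added after the values had been seen. Named beyond the 5 genes were list genes that passed, up to 3 per list with the largest differences, and the 6 stress genes tested. The 3 features most like each gene and genes within 200 kb of the Mt1 probe were also named. Alternatives changed the normalization, the filter, the probe rule, the slide and the replicate block, and left out each array in turn.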

Additional observations from a re-analysis of the deposited data

How the results depend on the processing

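The 5 genes' differences in the 7 comparisons gave 805 values over the alternatives, of which 722 kept their direction and their side of the threshold and 50 changed sign, all of these without passing in either setting. With the slide as a fixed block, and equally on slide 2 alone, changed signs were, for Slc30a1, 0.252 under LPS with the lincRNA siRNA, 0.0719 and -0.041 for the siRNA with and without LPS, 0.0154 for the siRNA average and 0.113 for the interaction. For Mtf1 they were 0.104, -0.05, 0.0268 and 0.154 for the siRNA with LPS, without LPS, averaged and the interaction, and for Mt1 -0.00247 for the siRNA with LPS. With the slide as a random block, Slc30a1 had 0.0529 under LPS with the lincRNA siRNA and Mtf1 -0.00428 for the siRNA without LPS. With normexp and quantile normalization, LPS in lincRNA-siRNA cells gave -0.0688 for Mtf1 and 0.0623 for Slc30a1, the siRNA average 0.00856 for Mtf1, and the interaction 0.0177 for Mt2, which was 0.0205 with quantile normalization and 0.0212 in the authors' value table. With the mean over kept probes, Mtf1 had -0.0225 under LPS with the lincRNA siRNA and 0.107 for the siRNA average. Leaving out 1 array, the ranges that crossed 0 were -0.0713 to 0.156 for Mtf1 and -0.133 to 0.131 for Slc30a1 for LPS with the lincRNA siRNA, -0.313 to 0.00993 for Slc30a1 with the siRNA and LPS, -0.0306 to 0.073 for Mtf1 and -0.137 to 0.227 for Slc30a1 with the siRNA without LPS, -0.102 to 0.0126 for Mtf1 and -0.161 to 0.0418 for Slc30a1 in the siRNA average, and -0.3 to 0.0624 for Mt2 and -0.0723 to 0.0683 for Slc39a14 in the interaction. The cause was not tested.

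Averaged over both siRNAs, the LPS difference of Mt2 did not pass with the slide as a fixed block (0.435) or a random block (0.485), on slide 2 alone (0.435), with quantile normalization (0.357), in the authors' value table (0.356) or with no filter on dim probes (0.492), nor in 8 of 12 fits without 1 array. That of Slc39a14 did not pass with the slide block (0.279), the random block (0.305), on slide 2 alone (0.279), with no filter (0.308) or with the replicate block (0.308), nor in 9 of those 12. Over all alternatives the adjusted p ranged from 0.0186 to 0.594 for Mt2 and from 0.0293 to 0.521 for Slc39a14. The replicate block gave Mt1 passing LPS differences of 0.472 in control-siRNA cells and 0.36 on average (adjusted p = 0.0208 and 0.0108, and up to 0.934 and 0.863 under other alternatives), and changed no other call of the 5 genes than these and that of Slc39a14. Over all features the replicate numbers showed no clear pairing of the arrays. Of 18 same-numbered pairs 8 correlated above 0.1 (lowest -0.3, highest 0.466), and 5 of 12 arrays correlated best with their own number. The scaled signal of Mt1 rose from replicate 1 to replicate 3 in every group. Whether the arrays were paired cannot be settled from these values. Without control siRNA replicate 3, Mt1 passed for LPS in control-siRNA cells (0.596) and on average (0.422), and without lincRNA siRNA replicate 1 Mt2 passed in control-siRNA cells (0.538). Over 23 alternatives each, the second probe described as metallothionein 1 and Slc7a11 passed in 21, Srxn1 in 9 and Gclc in 7.

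Features passing over the whole array were 433 in lincRNA-siRNA cells and 1257 in control-siRNA cells for LPS, 1981 for the LPS average, 23 for the siRNA average, and 0 for the siRNA with LPS, without LPS and the interaction. In that order of the first 4, the slide as a fixed block gave 160, 230, 533 and 0, and slide 2 alone 52, 55, 270 and 0; the fixed block also gave 2 and 1 for the siRNA with and without LPS. With no filter on dim probes, which tests more features, LPS gave 716 in control-siRNA cells and 1234 on average, and the siRNA average 0. The siRNA average gave 58 with normexp and quantile normalization, 38 in the authors' value table and 95 with probes well above background on all 12 arrays. The siRNA without LPS gave 5 with normexp and quantile normalization and 2 with the mean over kept probes. Leaving out 1 array, the counts ranged from 242 to 447 in lincRNA-siRNA cells and 519 to 3871 in control-siRNA cells for LPS, 1191 to 3552 for the LPS average, 0 to 1475 for the siRNA average, 0 to 2363 for the siRNA without LPS and 0 to 316 for the interaction. The highest of these, apart from the 447, came without control siRNA replicate 3, the control array on slide 2. Signal over background did not limit the 6 probes kept. The third Mtf1 probe gave no usable level.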
